A study of Homo sapiens with 24 samples.

Results

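Integrins are the receptors by which epithelial cells hold on to the extracellular matrix. The genes described here encode the integrin subunits that mammary and other epithelia characteristically use, the alpha subunits ITGA2, ITGA3, ITGA5, ITGA6 and ITGAV and the beta subunits ITGB1, ITGB4, ITGB5, ITGB6 and ITGB8. They were chosen by name, as the rows of the count table whose Ensembl identifier, without its version, carries 1 of these symbols. All 10 were found among the 60668 rows of the table, and all 10 had enough counts to be tested among 22158 genes.

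RNA was measured in MCF-10A, an immortalised and non-tumorigenic human mammary epithelial line of basal character, grown in 3 dimensions on growth-factor-reduced Matrigel from 10000 cells per well. Parental MCF-10A cells, labelled wild-type, were compared with MCF-10A MYC-ER cells, which carry the transcription factor MYC fused to the oestrogen receptor's ligand-binding region, so that the fusion acts in the nucleus only once 4-hydroxytamoxifen (4-OHT) is bound. Both lines received 1 µM 4-OHT for 48, 24 or 8 h or were left without it (0 h), and every culture was collected on day 5. Each of the 8 groups of line and time had 3 replicates. The parental series measures what the length of 4-OHT exposure does without the fusion, in cultures all collected on the same day. The promoter driving the fusion, whether the line is a single clone, and a vehicle for the 0 h cultures are not given in the sources used here. The replicates are labelled as triplicates, with no statement that they are separate experiments, so p-values measure the spread between these libraries, which may be technical.

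Each integrin is a pair of 1 alpha and 1 beta subunit, both of which cross the membrane, and neither reaches the cell surface well without its partner. The alpha subunit largely sets which matrix protein is bound: alpha2 with beta1 binds collagens, alpha3 and alpha6 bind laminins, alpha5 with beta1 binds fibronectin, and alphaV with beta1, beta5, beta6 or beta8 binds vitronectin, fibronectin or the latent form of TGF-beta. Alpha6 pairs with beta1 or, preferentially where it is present, with beta4, whose long cytoplasmic tail attaches to plectin and the keratin filaments in hemidesmosomes, the rivets that fix basal epithelial cells to the basement membrane. The beta1 subunit is shared by many alpha chains, and its tail recruits talin and kindlin at focal adhesions, where the actin cytoskeleton is joined.

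On GRCh38 with GENCODE v29 gene models, ITGA2 lies on chromosome 5 from 52989326 to 53094779, ITGA3 on chromosome 17 from 50055968 to 50090481 and ITGB4 on the same chromosome from 75721328 to 75757818. ITGA6 (172427354 to 172506282), ITGAV (186590065 to 186680901) and ITGB6 (160099666 to 160200313) all lie on chromosome 2, but not next to each other. ITGA5 lies on chromosome 12 from 54395261 to 54419460, ITGB1 on chromosome 10 from 32900319 to 33005792, ITGB5 on chromosome 3 from 124761948 to 124901418 and ITGB8 on chromosome 7 from 20330702 to 20415754. The values are per gene and cover exons only as the authors counted them. Their longest annotated transcripts fall into 2 classes of base composition. Those of ITGB8, ITGAV, ITGB1, ITGB6, ITGA2 and ITGA6 hold 37.8% to 42.9% G and C, and those of ITGB5, ITGA5, ITGA3 and ITGB4 hold 54.3% to 63.7%. This split returns below, since the parental libraries differed along it.

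MYC binds DNA with its partner MAX at the E-box, whose canonical letters are CACGTG. RefSeq promoter windows (GRCh38.p14, 250 bases before an annotated start) were at hand for 8 of the 10 genes, in 13 windows. The windows shown are the most upstream ones of 3 subunits whose transcripts rose in MYC-ER cells after 8 h (ITGA2, ITGA6 and ITGB5) and of 2 that did not pass the test there (ITGAV and ITGB1), without any bases that lie in annotated exons. Letters are lower case, read 5′ to 3′ on the gene's strand, and capitals mark the E-box CACGTG, the AP-1 site TGANTCA and the GC-box GGGCGG, which reads CCGCCC when on the other strand, searched on both strands and not overlapping here.
ITGA2, chr5:52989102-52989325, plus strand: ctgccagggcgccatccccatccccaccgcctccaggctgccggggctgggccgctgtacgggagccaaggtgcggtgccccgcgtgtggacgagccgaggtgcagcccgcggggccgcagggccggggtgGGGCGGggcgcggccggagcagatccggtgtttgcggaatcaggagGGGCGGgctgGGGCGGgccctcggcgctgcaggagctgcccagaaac
ITGA6, chr2:172427086-172427335, plus strand: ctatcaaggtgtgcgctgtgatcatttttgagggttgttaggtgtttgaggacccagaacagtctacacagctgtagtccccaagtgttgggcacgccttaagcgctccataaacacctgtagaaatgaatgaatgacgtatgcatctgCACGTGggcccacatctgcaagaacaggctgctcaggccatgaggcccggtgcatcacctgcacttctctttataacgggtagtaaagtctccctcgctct
ITGB5, chr3:124901419-124901668, minus strand: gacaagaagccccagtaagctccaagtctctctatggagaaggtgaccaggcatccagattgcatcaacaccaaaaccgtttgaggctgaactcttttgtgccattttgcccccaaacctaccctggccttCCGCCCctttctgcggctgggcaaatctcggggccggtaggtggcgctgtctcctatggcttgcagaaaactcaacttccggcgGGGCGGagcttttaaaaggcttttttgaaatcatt
ITGAV, chr2:186589806-186590055, plus strand: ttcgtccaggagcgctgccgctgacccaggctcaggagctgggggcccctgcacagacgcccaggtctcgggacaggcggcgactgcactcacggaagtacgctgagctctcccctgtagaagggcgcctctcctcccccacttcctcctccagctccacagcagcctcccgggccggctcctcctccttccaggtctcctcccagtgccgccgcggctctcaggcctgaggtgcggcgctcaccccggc
ITGB1, chr10:32958233-32958480, minus strand: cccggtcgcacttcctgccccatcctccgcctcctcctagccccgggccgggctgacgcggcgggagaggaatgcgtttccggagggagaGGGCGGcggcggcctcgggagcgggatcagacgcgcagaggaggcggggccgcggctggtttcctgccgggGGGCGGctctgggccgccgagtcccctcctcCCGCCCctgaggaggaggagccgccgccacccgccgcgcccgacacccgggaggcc

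The ITGA6 window shown held a canonical E-box, whose first base lies 101 bases before the annotated start, and no window of the other 4 held one. The windows of ITGA5, ITGB6 and ITGB8, which are not shown, held no E-box. Neither did the further windows of ITGA6, ITGAV, ITGB1 and ITGB5. Of all 35116 RefSeq windows of 250 bases, 6.34% held an E-box, 6.57% an AP-1 site and 42.6% a GC-box. Among the windows shown, GC-boxes numbered 3 in the ITGA2 window, 3 in that of ITGB1 and 2 in that of ITGB5, and none in those of ITGA6 and ITGAV. No AP-1 site was found in these windows. The ITGA2 and ITGB1 windows shown were 77.2% and 78.2% G and C, against a median of 58.0% over all windows. Such matches describe the letters of these windows and not binding, which was not measured.

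Total counts ran from 136860029 to 182438505 per library. MYC transcript, which includes any of the fusion that maps to the gene, stood at 378 to 394 CPM (read counts put on a shared library size with the TMM method, which balances library composition) in MYC-ER cells at 0 h and at 793 to 797 after 8 h, while parental libraries ranged from 443 to 599 over all times. Of 8 MYC target genes used to check the labels, 8 rose in MYC-ER cells at 8 h. That contrast called 67.6% of all genes in either direction. Without 4-OHT the test put all 8 under their parental level, where 64.3% of all genes were called. Both counts rest on the MYC-ER libraries at 0 h. KRT5, a basal epithelial keratin, reached a mean of 12528 CPM in MYC-ER cells at 0 h. The 7 basal markers summed to 14817 to 15317 CPM there and to 23263 to 29675 CPM in parental cells at 0 h. Between the lines at 0 h, KRT14 (log2 difference -3.96), KRT17 (-2.73) and SFN (-1.87) were lower in MYC-ER cells. EGFR (0.46), TP63 (0.38) and CDH3 (0.21) were higher. Of 5 epithelial markers 4 were lower and 1 was higher, where 64.3% of all genes were called. The leukocyte and endothelial markers PTPRC, CD3E and CDH5 lay at or near 0. The 7 leukocyte markers summed to 13.2 to 27.7 CPM over all libraries, of which CD68 alone reached a mean of 21.9 CPM, and the 6 endothelial and platelet markers to 0.631 to 3.14 CPM. Among 8 fibroblast markers COL3A1, COL1A2 and THY1 were near 0 as well, but COL1A1 and DCN were not, and the summed level of the list was 370 to 377 CPM in MYC-ER cells at 0 h, 102 to 109 at 8 h and 117 to 133 in parental cells at 0 h. Its part in the integrin results was not tested. Fewer cells of a type and less RNA per cell cannot be told apart in such bulk libraries.

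Compared per length of the longest transcript (CPM per kilobase), the abundant subunits in parental cells at 0 h were ITGB4 at 273 ± 20.2 (SD, n = 3), ITGA6 at 196 ± 37.6, ITGA3 at 179 ± 17.2 and ITGB1 at 156 ± 28.1, that is, the chains of the laminin receptors. The fibronectin receptor chain ITGA5 stood at 49.5 ± 4.36 CPM per kilobase and ITGB5 at 31.7 ± 3.44. The chains ITGAV (13.4 ± 5.81), ITGB6 (9.58 ± 1.68), ITGA2 (5.83 ± 2.29) and ITGB8 (4.03 ± 2.04) were the scarce ones on this scale. In MYC-ER cells at 0 h the order was different: ITGB1 led at 285 ± 14.3 CPM per kilobase, ITGB4 followed at 110 ± 1.77 and ITGA6 at 78.4 ± 2.70, and ITGA2 was lowest at 1.78 ± 0.10. Of the 16 further alpha and beta subunits in the list, none exceeded 16.4 CPM in any library, the highest being ITGAE. That is above the CPM of ITGA2 in MYC-ER cells at 0 h and of ITGB6 at 24 h, the lowest groups of these 10 subunits. Among the 16, ITGA8 and ITGAD had 0 counts throughout, a result that leaves room for up to 0.0219 CPM given the smallest library.

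**Figure D1:**
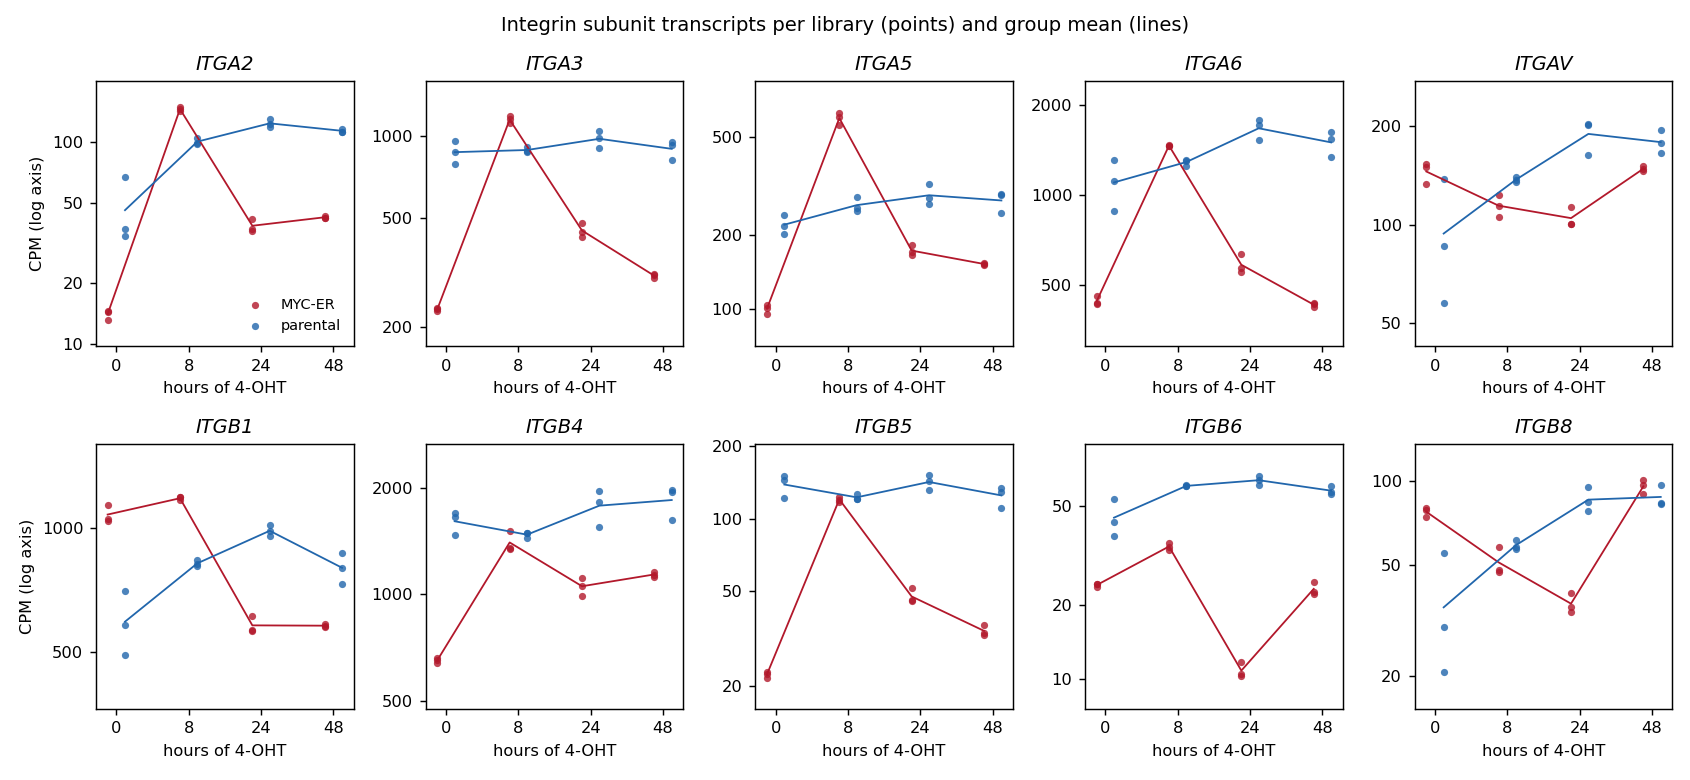
CPM (log axis, scaled by TMM) of each of the 10 integrin subunits against hours of 4-OHT (evenly spaced categories) in MYC-ER (red) and parental (blue) cells; points are libraries, 3 per group, and lines join group means. In ITGA2, ITGA3, ITGA5, ITGA6, ITGB4 and ITGB5 the MYC-ER points lie under the parental ones at 0 h, peak at 8 h and come down again, while ITGAV and ITGB8 fall to their lowest MYC-ER values at 24 h.

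The first comparison asked what activating MYC-ER for 8 h did to these receptors. Of the 10 subunits, 7 rose and 1 fell at 8 h against 0 h in MYC-ER cells (edgeR's quasi-likelihood test, Benjamini-Hochberg adjusted p under 0.05), in a contrast that called 67.6% of all genes. Of those, 6 rose at least 2-fold, where 15.1% of all genes did. The median log2 change of the 10 was 1.42, against -0.10 over all genes tested. Replicates of the 2 groups did not overlap for any of the 10, as was true of 73.5% of all genes.

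Among the alpha subunits, the collagen-binding ITGA2 moved furthest. Its level was 14.6, 14.4 and 13.2 CPM in the 3 libraries at 0 h and 145, 148 and 142 CPM at 8 h. The groups were wide apart, by 10.3-fold (log2 change 3.37, SE 0.16, adjusted p = 4.52e-14). ITGA5, the fibronectin receptor chain, went from 95.7, 101 and 104 CPM to 604, 558 and 624 CPM. That is 5.93-fold (log2 change 2.57, SE 0.08, adjusted p = 6.768e-17). ITGA3, the chain of the laminin-332 receptor alpha3 beta1, went from 232, 229 and 233 CPM to 1159, 1117 and 1184 CPM, a 4.98-fold rise (log2 change 2.32, SE 0.07, adjusted p = 3.489e-17). Its 8 h mean was the highest of its 8 groups, as it also was for ITGA2 and ITGA5. ITGA6, which forms the hemidesmosome receptor with beta4, went from 430, 458 and 434 CPM to 1459, 1467 and 1453 CPM. This is a 3.31-fold rise (log2 change 1.73, SE 0.10, adjusted p = 1.179e-12) to a level within the range of the parental libraries at later times.

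The alphaV chain was the exception among the alpha subunits. ITGAV stood at 150, 153 and 133 CPM at 0 h and at 114, 123 and 106 CPM at 8 h, lower in each 8 h library than in any at 0 h, but its log2 change of -0.35 (SE 0.18) did not pass the test (adjusted p = 0.09226). It passed when only these 6 libraries were fitted (adjusted p = 0.001886), a fit that leaves out the parental libraries, which at 0 h were scattered for this gene. In the fit of all libraries it passed once trends with GC content and transcript length were removed (-0.31, adjusted p = 0.005275).

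The beta subunits split in the same way. ITGB5, which pairs with alphaV to bind vitronectin, rose 5.37-fold, from 21.7, 22.9 and 22.5 CPM to 123, 118 and 120 CPM (log2 change 2.42, SE 0.08, adjusted p = 1.118e-16). ITGB4, the hemidesmosomal chain, rose 2.16-fold, from 651, 640 and 661 CPM to 1348, 1352 and 1514 CPM (log2 change 1.11, SE 0.08, adjusted p = 8.277e-11). ITGB6, the epithelial chain of the TGF-beta-activating receptor alphaV beta6, rose less, from 24.2, 23.6 and 24.2 CPM to 35.4, 33.3 and 34.1 CPM (log2 change 0.52, SE 0.08, adjusted p = 1.054e-05). ITGB8, the other chain that lets alphaV activate TGF-beta, fell from 78.4, 79.7 and 74.0 CPM to 48.0, 58.1 and 47.0 CPM (log2 change -0.60, SE 0.20, adjusted p = 0.01194). So the 2 TGF-beta-linked beta chains moved in opposite directions within 8 h.

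ITGB1, the common partner, had 1052, 1139 and 1039 CPM at 0 h and 1185, 1185 and 1169 CPM at 8 h. Its log2 change of 0.13 (SE 0.09) did not pass the test (adjusted p = 0.1807). It passed when only these 6 libraries were fitted (adjusted p = 0.004729). With trends with GC content and transcript length removed it did not (0.07, adjusted p = 0.1743). ITGB1P1, a processed pseudogene of ITGB1, held counts amounting to 3.43% to 4.36% of those of ITGB1 in the single libraries. Reads of the pair may not be told apart with certainty. How many were given to the wrong gene was not tested, so this share does not bound the uncertainty of ITGB1. Antisense genes overlap exons of ITGA5, ITGA6, ITGAV and ITGB8, but their counts stayed at or under 246 in any library. ITGB1-DT overlaps exons of ITGB1 on the opposite strand, with at most 130 counts in a library. AC092153.1 overlaps those of ITGB6 on the same strand, with at most 14. Scaling each library by its plain total, or removing trends with GC content and transcript length, left every one of the 8 calls at 8 h in place.

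**Figure D2:**
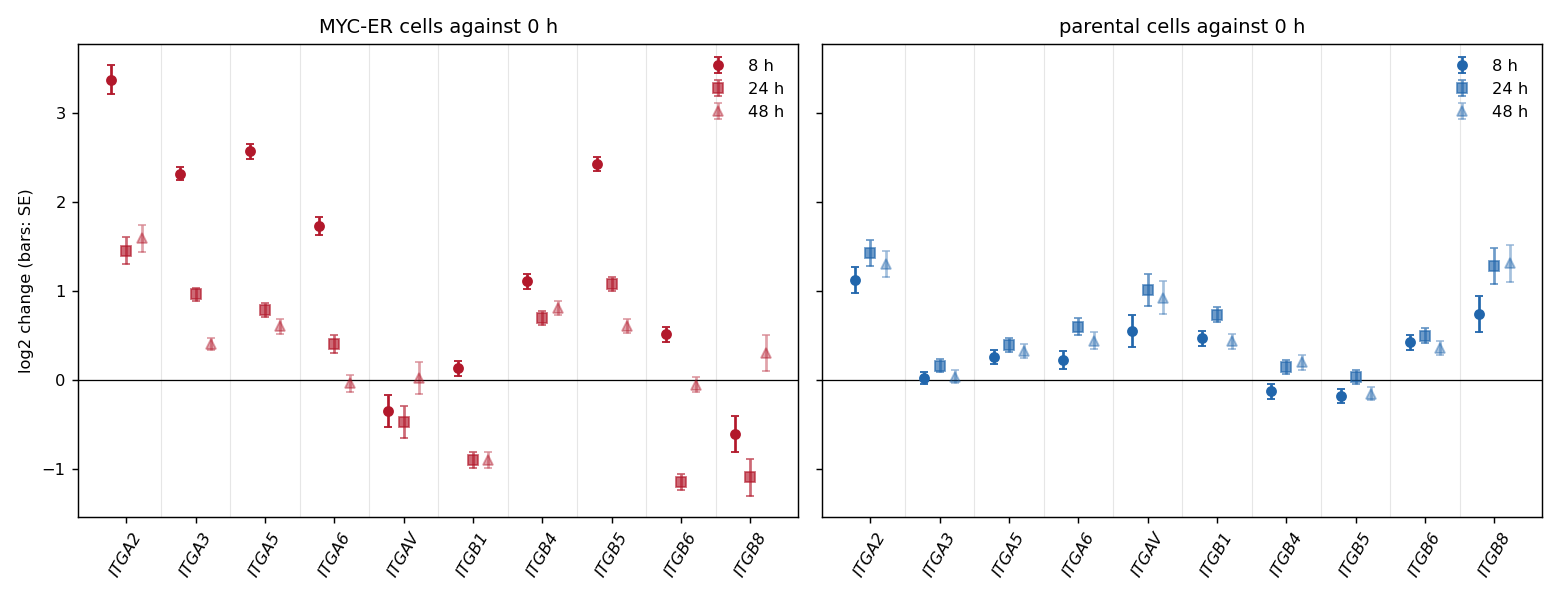
log2 change from 0 h with its SE for each subunit after 8 h (circles), 24 h (squares) and 48 h (triangles), in MYC-ER cells on the left and parental cells on the right. ITGA2, ITGA3, ITGA5, ITGA6, ITGB4 and ITGB5 have their largest MYC-ER change at 8 h, and no parental change exceeds 1.43.

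The next comparisons asked how long the change lasted. From 8 h to 24 h in MYC-ER cells 9 of the 10 subunits fell and none rose, in a contrast that called 55.5% of all genes in either direction and 27.1% as lower. Of these, 7 fell at least 2-fold, where 6.82% of all genes did, and the median log2 change was -1.33 against 0.05 over all genes. ITGA2 dropped to 41.7, 36.4 and 37.1 CPM and ITGA5 to 182, 170 and 166 CPM, log2 changes of -1.92 and -1.78. ITGB1, which had not passed the test at 8 h, fell to 611, 563 and 564 CPM (log2 change -1.03, SE 0.09, adjusted p = 1.311e-09). ITGB6 fell to 11.7, 10.5 and 10.3 CPM, the lowest of its 8 groups, with a log2 change of -1.66. The remaining subunit, ITGAV, had a log2 change of -0.13 (adjusted p = 0.5785). The fall of ITGB8, with a log2 change of -0.49 and an adjusted p of 0.04475, lies at the threshold and was lost in 18 of the 24 fits that left out 1 library, with the highest adjusted p (0.1601) without MYC-ER 8 h replicate 2.

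Against 0 h, the 24 h libraries showed 6 subunits higher and 4 lower, where 61.6% of all genes were called. ITGA2 remained 1.45 log2 units up (SE 0.15), ITGB5 1.08 (SE 0.08), ITGA3 0.96 (SE 0.07), ITGA5 0.78 (SE 0.08), ITGB4 0.70 (SE 0.08) and ITGA6 0.41 (SE 0.10). ITGB6 (-1.14, SE 0.08), ITGB8 (-1.09, SE 0.20), ITGB1 (-0.89, SE 0.09) and ITGAV (-0.47, SE 0.18) were under their starting level. For ITGAV, ITGB6 and ITGB8, 24 h had the lowest mean of the 4 MYC-ER groups. The ITGAV call rests on thin evidence: its adjusted p of 0.02646 passed the threshold no longer in 4 of the 24 fits that left out 1 library, those without MYC-ER 0 h replicate 1 (0.06569) or 2 (0.07435) and without MYC-ER 24 h replicate 2 (0.07408) or 3 (0.07303).

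At 48 h, 5 subunits were higher than at 0 h and 1 was lower, in a contrast that called 44.1% of all genes. ITGA2, with 42.1, 41.9 and 42.9 CPM, stood 3.01-fold above its start (log2 change 1.59, SE 0.15). ITGB4, with 1138, 1124 and 1158 CPM, was 1.75-fold above it and had hardly moved since 24 h (log2 change 0.11, adjusted p = 0.2667). ITGA5 and ITGB5 were each 1.52-fold up and ITGA3 1.33-fold. ITGA6, with 435, 421 and 432 CPM, overlapped its 0 h values (log2 change -0.04, adjusted p = 0.8001), so the partner chains of the hemidesmosome receptor ended differently, beta4 raised and alpha6 back at its starting level. ITGB1 remained down at 584, 575 and 576 CPM (log2 change -0.90, SE 0.09, adjusted p = 2.019e-08). ITGB8 recovered from 39.8, 33.8 and 35.4 CPM at 24 h to 89.7, 96.2 and 100 CPM at 48 h (log2 change 1.39, SE 0.20, adjusted p = 5.089e-06). ITGB6 recovered as well, from its low at 24 h to 22.6, 22.1 and 24.8 CPM (log2 change 1.09, SE 0.08), which overlaps the values at 0 h. From 24 h to 48 h 3 subunits rose and 3 fell in all, where 53.7% of all genes were called, and the rise of ITGAV (log2 change 0.50, adjusted p = 0.0224) was lost without MYC-ER 24 h replicate 2 (adjusted p = 0.06723) or 3 (0.06649) and without MYC-ER 48 h replicate 3 (0.05347).

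In parental cells, which measure 4-OHT without the fusion, 6 subunits rose at 8 h (31% of all genes called), 7 at 24 h (42.9%) and 7 at 48 h (40.5%), and none fell. ITGA2 had the largest change at 8 h and 24 h, and at 48 h it and ITGB8 were nearly level (1.30 and 1.31). ITGA2 had 36.9, 66.6 and 34.1 CPM at 0 h, 98.1, 97.9 and 104 CPM at 8 h, 122, 118 and 130 CPM at 24 h and 112, 112 and 116 CPM at 48 h. The 0 h libraries of this group were far apart, and all later ones lay above them. The log2 change of ITGA2 was 1.13 after 8 h (SE 0.15, adjusted p = 1.429e-05), and later 1.43 and 1.30. ITGB8 had 29.9, 55.2 and 20.6 CPM at 0 h and 94.6, 77.9 and 84.0 CPM at 24 h (log2 change 1.28, SE 0.20, adjusted p = 4.591e-05). ITGAV had 86.1, 138 and 57.4 CPM at 0 h and 202, 163 and 203 CPM at 24 h (log2 change 1.01, SE 0.18, adjusted p = 0.0001281). In ITGA2, ITGAV, ITGB8, ITGB6, ITGB1 and ITGA6 alike, replicate 2 was the highest and replicate 3 the lowest of the 3 parental libraries at 0 h. For ITGA3, ITGA5, ITGB4 and ITGB5, whose transcripts are richer in G and C, replicate 2 was instead the lowest.

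The rest of the parental rises were smaller. At 24 h the log2 changes were 0.73 for ITGB1, 0.60 for ITGA6, 0.50 for ITGB6 and 0.40 for ITGA5. ITGB5 ranged from 111 to 152 CPM over all 12 parental libraries and passed the test at no time, and neither did ITGA3, from 792 to 1049 CPM, nor ITGB4, from 1448 to 1982 CPM. These 3 were among the subunits that rose at 8 h in MYC-ER cells.

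The subunits that rose in parental cells were the 6 with AT-rich transcripts, together with ITGA5, and over the 9784 genes whose mean reached 10 CPM the parental log2 change followed GC content, with Spearman correlations of -0.64, -0.68 and -0.67 after 8, 24 and 48 h. In MYC-ER cells the same correlations were 0.01, -0.06 and 0.03. Where each library's trend with GC content and transcript length was removed, the 24 h change in parental cells came to 0.94 for ITGA2, 0.71 for ITGB8, 0.48 for ITGAV, 0.39 for ITGB1 and 0.27 for ITGA6, all still called, and to 0.10 for ITGB6, which was not (adjusted p = 0.1014). The change of ITGA5 grew from 0.40 to 0.58. ITGA3 and ITGB4 then passed the test with log2 changes of 0.38 and 0.38. The removal left a trend of the opposite sign, with Spearman correlations with GC content of 0.11, 0.19 and 0.21 after 8, 24 and 48 h. The transcripts of ITGA3 and ITGB4 hold 60.9% and 63.7% G and C, and that of ITGB6 holds 40.1%. Whether the remaining trend enters these gains and losses was not tested. At 48 h ITGA6, ITGB1 and ITGB6 no longer passed the test on that scale, while ITGA3 (0.23) and ITGB4 (0.405) now did. ITGA3 also passed it at 8 h (0.22). The share of the parental changes that belongs to the base composition of the libraries was not tested further. A fit of the groups compared alone had fewer libraries to set the spread. It called 1 subunit at 8 h (ITGA2, adjusted p = 0.03234, with 7.41% of all genes called), 7 at 24 h (25.1%) and 3 at 48 h (16.6%). Leaving parental 0 h replicate 1 out of the fit of all libraries took the 8 h count from 6 to 3. In the fit of all libraries the 8 h call of ITGAV was lost in 5 of the 24 fits that left out 1 library (all 3 parental libraries at 8 h, and parental 0 h replicates 1 and 3), that of ITGA5 in 3 (parental 0 h replicates 1 and 2 and 8 h replicate 3) and that of ITGB8 without parental 0 h replicate 1 (adjusted p = 0.05464).

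**Figure D3:**
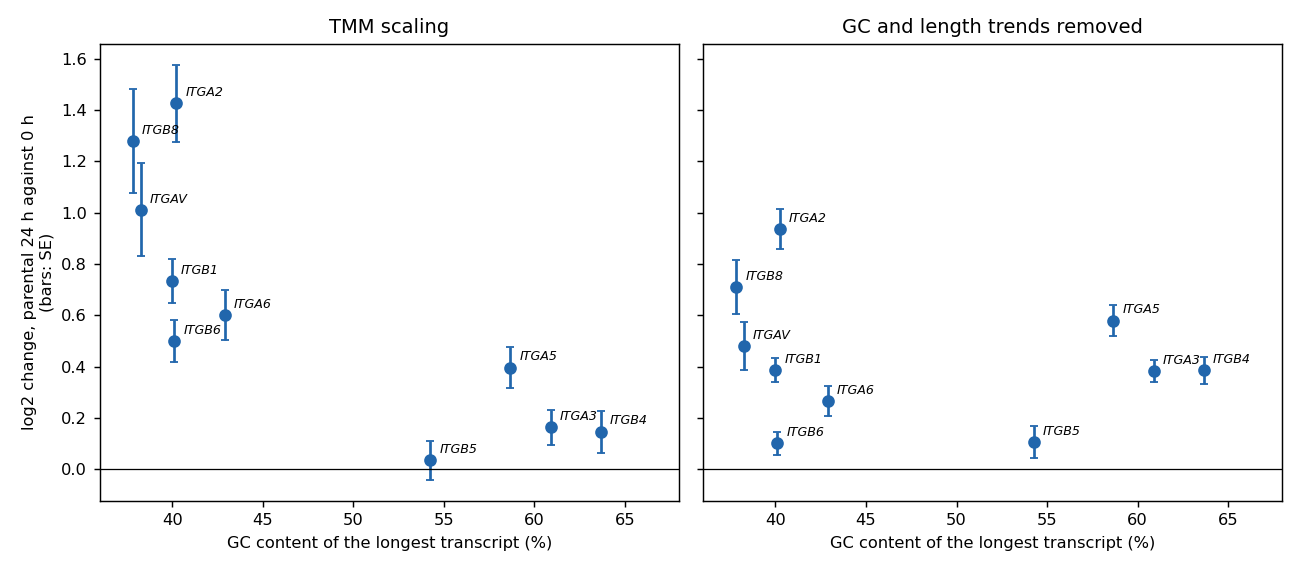
log2 change of the 10 subunits in parental cells at 24 h against 0 h, with SE, plotted against the GC content of the longest transcript, with TMM scaling on the left and with GC and length trends removed on the right. On the left the 6 transcripts between 37.8% and 42.9% GC all lie above the other 4; on the right the classes overlap.

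The design also allows the lines to be compared directly. Without 4-OHT the test separated the lines for all 10 subunits, of which 7 were lower in MYC-ER cells and 3 higher, in a contrast that called 64.3% of all genes. Of the 7, 6 were at least 2-fold lower, as were 15% of all genes. The median log2 difference was -1.22, against 0 over all genes. ITGB5 was 6.19-fold lower in MYC-ER cells, with 21.7 to 22.9 CPM against 122 to 150 CPM (log2 difference -2.63, SE 0.08, adjusted p = 3.682e-17). ITGA3 was 3.78-fold lower (log2 difference -1.92, SE 0.07), ITGA2 3.27-fold (-1.71, SE 0.15), ITGA6 2.50-fold (-1.32, SE 0.10), ITGB4 2.48-fold (-1.31, SE 0.08), ITGA5 2.19-fold (-1.13, SE 0.08) and ITGB6 1.87-fold (-0.90, SE 0.08). The same 7 subunits are those that rose in MYC-ER cells at 8 h. Since both comparisons use the MYC-ER libraries at 0 h, they are not independent, and a low value there enters both.

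The 3 higher ones were ITGB1, ITGB8 and ITGAV. ITGB1 had 1052, 1139 and 1039 CPM in MYC-ER cells against 581, 702 and 490 CPM in parental cells (log2 difference 0.86, SE 0.09, adjusted p = 1.314e-08). ITGB8 was 2.20-fold higher (log2 difference 1.13, SE 0.20, adjusted p = 4.538e-05). ITGAV overlapped between the lines, since parental replicate 2 with 138 CPM lay above MYC-ER replicate 3 with 133 CPM, and its log2 difference of 0.63 (adjusted p = 0.004124) became 0.14 (adjusted p = 0.1892) once GC and length trends were removed. The ITGB8 difference became 0.61 and the ITGB1 difference 0.63 on that scale, both still called.

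After 48 h of 4-OHT in both lines, 8 subunits were lower in MYC-ER cells and none was higher, where 56.7% of all genes were called in either direction and 29.4% as lower. ITGB5 was again the furthest apart and was 3.67-fold lower (log2 difference -1.88, SE 0.08), ITGA6 3.48-fold (-1.80, SE 0.10), ITGA3 2.93-fold (-1.55, SE 0.07), ITGA2 2.68-fold (-1.42, SE 0.15) and ITGB6 2.48-fold (-1.31, SE 0.08). ITGA5 (-0.86) and ITGB4 (-0.70) were less than 2-fold apart. ITGB1, higher in MYC-ER cells at 0 h, was now lower (log2 difference -0.47, SE 0.09, adjusted p = 8.163e-05). ITGAV (-0.27, adjusted p = 0.2091) and ITGB8 (0.13, adjusted p = 0.6183) did not pass the test. ITGAV passed it as lower when only these 6 libraries were fitted (adjusted p = 0.005728) and, in the fit of all, without parental 0 h replicate 2 (adjusted p = 0.03588). ITGB8 passed it as higher in MYC-ER cells once GC and length trends were removed (0.26, adjusted p = 0.03655), so that 1 subunit was higher and 8 were lower on that scale.

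**Figure D4:**
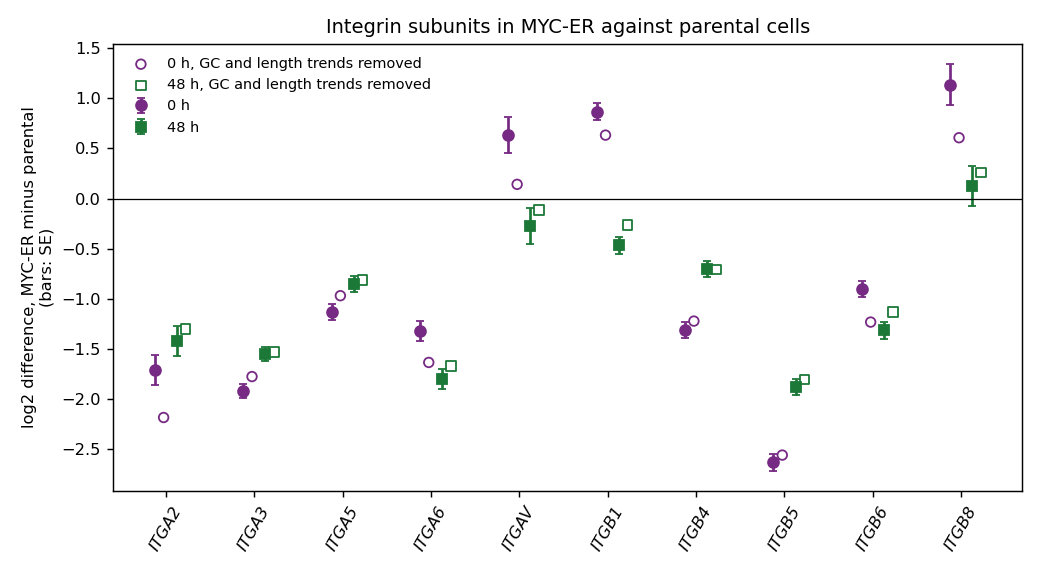
log2 difference, MYC-ER minus parental, for each subunit at 0 h (purple circles) and 48 h (green squares); filled symbols with SE bars use TMM scaling and open symbols the values with GC and length trends removed. ITGAV, ITGB1 and ITGB8 lie above 0 at 0 h, and the other 7 lie under it at both times.

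Whether the response to 4-OHT itself differed between the lines was tested by subtracting the change in parental cells from that in MYC-ER cells. At 8 h, 9 subunits differed, 6 with a higher and 3 with a lower response in MYC-ER cells, where 55.2% of all genes were called. The difference was 2.60 log2 units for ITGB5 (SE 0.11), 2.30 for ITGA5 (SE 0.11), 2.29 for ITGA3 (SE 0.10), 2.24 for ITGA2 (SE 0.21), 1.5 for ITGA6 (SE 0.14) and 1.24 for ITGB4 (SE 0.12). It was -1.34 for ITGB8 (SE 0.28), -0.89 for ITGAV (SE 0.25) and -0.34 for ITGB1 (SE 0.12). The ITGB1 call was lost without MYC-ER 0 h replicate 2 (adjusted p = 0.06314), and narrowly so when parental 0 h replicate 3 was left out (adjusted p = 0.05116). The rise of ITGB6 at 8 h, 0.52 in MYC-ER and 0.42 in parental cells, had a difference of 0.09 between the lines on TMM scaling (SE 0.12), which did not pass the test (adjusted p = 0.5372) but did once GC and length trends were removed (0.32, adjusted p = 0.0002319).

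At 24 h, 4 responses were higher and 4 lower in MYC-ER cells (54.5% of all genes called), the largest being -2.37 for ITGB8 (SE 0.29), -1.64 for ITGB6 (SE 0.12), -1.63 for ITGB1 (SE 0.12) and -1.48 for ITGAV (SE 0.25). ITGA2, which was up in both lines at this time, had a difference of 0.03 (adjusted p = 0.9377), but this value hangs on the parental libraries at 0 h: without replicate 2 it was -0.34 (adjusted p = 0.0006331), and removing GC and length trends gave 0.61 (adjusted p = 5.501e-05). At 48 h, 4 were higher and 5 lower (45% of all genes called). ITGB1 (-1.33, SE 0.12) and ITGB5 (0.75, SE 0.11) were called there with TMM scaling and with GC and length trends removed, as were ITGB4 (0.61, SE 0.12) and ITGA3 (0.37, SE 0.10). With those trends removed 5 were called (42.5% of all genes), with ITGA2 gained and ITGA5, ITGA6, ITGAV, ITGB6 and ITGB8 lost. ITGB6 turned from -0.41 to 0.10 (adjusted p = 0.2493).

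Because the chains work in pairs, the ratio of partner transcripts within a library describes how their balance moved, free of library scaling. These ratios compare levels of transcripts, not of the receptors, and their absolute height includes the difference in transcript length. The ratio of ITGA6 to ITGB4 counts, both chains of the hemidesmosome receptor, had a log2 value of -0.56 ± 0.07 (SD, n = 3) in MYC-ER cells before 4-OHT, and of 0.06 ± 0.10, -0.86 ± 0.08 and -1.41 ± 0.02 after 8, 24 and 48 h. In parental cells it was -0.57 ± 0.37, -0.20 ± 0.01, -0.10 ± 0.06 and -0.31 ± 0.06. The parental libraries at 0 h were wide apart (-0.91 to -0.18) and spanned those of MYC-ER cells, while at 48 h all MYC-ER libraries lay under all parental ones. No test was run on these ratios, and a trend with base composition, in which the 2 transcripts differ, is not removed from them.

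In 4 of the 5 pairs with ITGB1 the balance moved towards the alpha chain in MYC-ER cells at 8 h. The log2 ratio of ITGA3 to ITGB1 went from -2.22 ± 0.09 to -0.03 ± 0.05 in MYC-ER cells and came back to -0.91 ± 0.01 by 48 h, while in parental cells it lay at 0.58 ± 0.35, 0.12 ± 0.02, -0.01 ± 0.06 and 0.17 ± 0.05. The ratio of ITGA2 to ITGB1 went from -6.26 ± 0.08 to -3.02 ± 0.02 at 8 h, which is within the parental range of 8 h libraries (-3.06 to -3.00), and was -3.77 ± 0.02 at 48 h. That of ITGA5 to ITGB1 went from -3.42 ± 0.09 to -0.99 ± 0.09 and then to -1.92 ± 0.02. The ratio of ITGA6 to ITGB1 went from -1.29 ± 0.03 to 0.31 ± 0.01 and then to -0.43 ± 0.02. For none of these 4 pairs did the MYC-ER libraries at 48 h return to the ratio of 0 h, and no replicate values overlapped between those times. The fifth pair, ITGAV with ITGB1, moved the other way at 8 h, from -2.89 ± 0.08 to -3.37 ± 0.10, and ended above its start at -1.97 ± 0.03.

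The other alphaV pairs differed among themselves. The log2 ratio of ITGAV to ITGB5 fell from 2.69 ± 0.12 at 0 h to -0.08 ± 0.13 at 8 h and rose to 1.14 ± 0.01 and 2.12 ± 0.05, whereas in parental cells it went from -0.65 ± 0.79 to 0.52 ± 0.06. The ratio of ITGAV to ITGB6 fell from 2.60 ± 0.13 to 1.73 ± 0.14 at 8 h, rose above its start to 3.27 ± 0.02 at 24 h and stood at 2.68 ± 0.07 at 48 h. That of ITGAV to ITGB8 rose from 0.91 ± 0.05 to 1.17 ± 0.08 and 1.53 ± 0.04 at 8 and 24 h, and ended under its start at 0.64 ± 0.06, with no overlap between these groups.

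**Figure D5:**
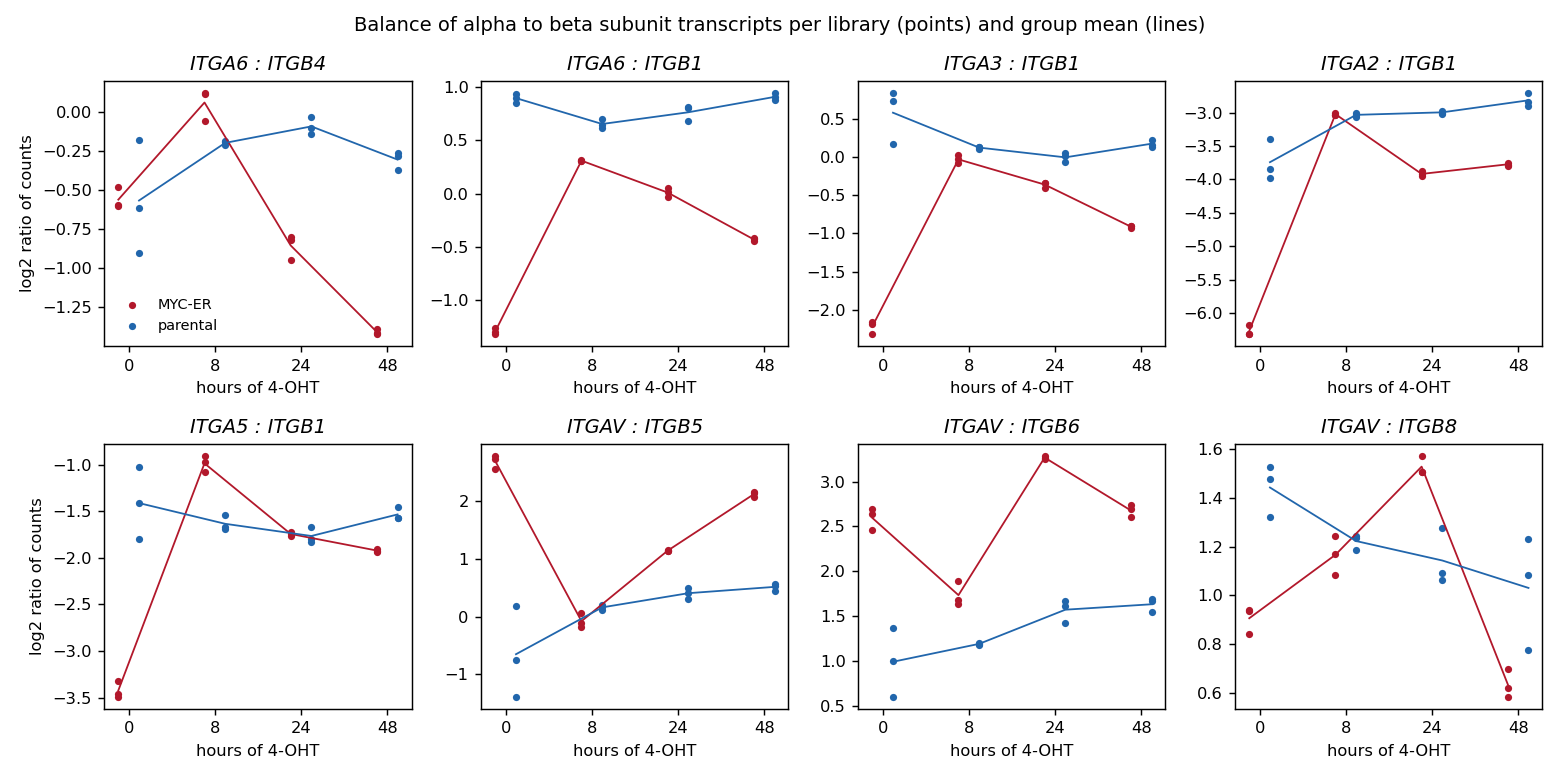
log2 ratio of the counts of an alpha subunit to those of a beta partner in each library (points, 3 per group; lines join means), against hours of 4-OHT in MYC-ER (red) and parental (blue) cells. ITGA3, ITGA2 and ITGA5 against ITGB1 jump at 8 h in MYC-ER cells and settle between, ITGAV against ITGB5 does the reverse, and ITGA6 against ITGB4 ends at -1.41 in MYC-ER and -0.31 in parental cells.

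The matrix proteins these receptors bind were followed as a list of 21 genes, of which 19 were tested. In MYC-ER cells at 8 h 12 rose and 7 fell, with a median log2 change of 1.21 against -0.10 over all genes, of which 67.6% were called. THBS1 (thrombospondin 1, 4.06), TNC (tenascin C, 3.65) and LAMB3 (the beta chain of laminin-332, the ligand of alpha3 beta1 and alpha6 beta4; 3.29) rose most among genes of at least 10 CPM. LAMB1 (-2.50) and LAMB2 (-1.50), beta chains of other laminins, and COL1A1 (-1.95), a collagen chain, fell. The list in MYC-ER cells at 0 h stood 12 lower and 5 higher than in parental cells, where 64.3% of all genes were called. FN1 (fibronectin, -6.92), TNC (-5.13) and THBS1 (-4.45) were lower, and LAMB1 (2.42), COL1A1 (1.19) and LAMB2 (1.11) were higher. Both comparisons use the MYC-ER libraries at 0 h.

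On the inner side of the membrane, 14 of 21 focal adhesion adaptors and kinases rose and 5 fell in MYC-ER cells at 8 h, with a median log2 change of 0.40. That is 19 of 21 called, where 67.6% of all genes were called and the median over all genes was -0.10. ACTN1 (2.86) and FLNA (2.83), which link integrin tails to actin, and FERMT1 (kindlin 1, a talin co-activator of integrins, 2.44) led the rises, and TNS3 (tensin 3, -1.83), TLN2 (talin 2, -0.67) and PARVA (parvin alpha, -0.33) the falls. From 8 h to 24 h 17 of the 21 fell and 2 rose, where 27.1% of all genes fell. The 6 hemidesmosome partners of alpha6 beta4 split evenly at 8 h, with KRT14 (1.28), PLEC (plectin, 0.63) and CD151 (a tetraspanin partner of laminin-binding integrins, 0.17) higher and DST (dystonin, which includes BPAG1, -2.31), COL17A1 (BP180, -0.53) and KRT5 (-0.33) lower. At 24 h, 2 of these 6 were higher and 4 lower than at 0 h, where 61.6% of all genes were called. ITGB4 and ITGA6 were both above their start at that time. Removing GC and length trends ended the call for CD151 at 8 h.

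The counts of the other lists of integrin biology at 8 h are to be read against the 67.6% of all genes called in this contrast. Of 4 inactivators of integrins 3 rose at 8 h and none fell, among them ITGB1BP1 (ICAP1, which competes for the beta1 tail, 1.34) and SHARPIN (0.47). Of 10 tetraspanins and membrane partners 4 rose and 5 fell, with PLAUR (the urokinase receptor, 3.16) and CD44 (the hyaluronan receptor, 0.74) up and SLC3A2 (CD98 heavy chain, -0.52), CD82 (-0.48) and CAV1 (caveolin 1, -0.35) down. Of 10 genes of integrin trafficking 4 rose, led by ARF6 (0.73), and 3 fell, led by RAB11FIP1 (-0.62), a share near that of all genes. Of 8 genes of TGF-beta activation and response, the pathway that alphaV beta6 and alphaV beta8 feed, 3 rose and 3 fell. SKIL (1.46) and SMAD3 (0.25) were among those up, and TGFBR3 (betaglycan, -4.08), TGFBR2 (-0.31) and SMAD7 (-0.19) were down. Of the 16 other integrin subunits, 12 were tested at 8 h, and 5 rose and 3 fell. Among them only ITGA10, a collagen-binding alpha chain, combined a call with a level over 10 CPM (log2 change 1.96).

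For each subunit, the gene whose log2 CPM followed it best over the 24 libraries was looked up among 9783 genes of at least 10 CPM, as a description. The libraries share 8 groups, and group differences set most of the likeness. ITGA3 went with CCND1 (cyclin D1, Pearson r = 0.990), ITGB5 with FGFBP1 (r = 0.991), ITGA2 with KLF7 (r = 0.986) and INHBA (r = 0.984), ITGA6 with TOP1 (r = 0.983), ITGA5 with SLC45A3 (r = 0.983) and ITGB6 with SDR16C5 (r = 0.979). ITGB4 went with EXT1 (r = 0.968) and with the ephrin receptor gene EPHA2 (r = 0.957). ITGAV (CDC42BPA, r = 0.939) and ITGB8 (MOSPD2, r = 0.945) had looser best matches. For ITGB1 the best match was its own pseudogene ITGB1P1 (r = 0.982), followed by SNRK (r = 0.971).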

How the data were processed

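RNA-seq counts per gene of 24 libraries (8 groups of 3) were used. Per the submitters' processing notes, Trimmomatic 0.39, STAR, StringTie 2.1.3b and the build GRCh38 were involved, with no role or order given. The authors deposited whole-number counts, not normalised. StringTie derives counts from coverage, so they are treated here as estimates. Strand use, multimapping and annotation release are not given in the sources used here. Symbols, lengths and GC content came from GENCODE v29 by identifier without version (60340 of 60668 rows matched a symbol).

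The 22158 genes passing filterByExpr were modelled in edgeR 4.0.16 (under R 4.3.3), using TMM scaling and a separate mean for each group in a single fit of every library. The 13 contrasts used the two-sided quasi-likelihood F test with Benjamini-Hochberg adjustment over all genes and a threshold of 0.05. SEs are the log2 change divided by the square root of F. CPM uses TMM-scaled totals. Correlations used a prior count of 2. The method was tested on simulated data. Replicates differed beyond sampling noise (chi-square per degree of freedom 8.63 to 268 over 24 pairs). The limit a count of 0 allows takes 3 counts and covers counting error only.

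The members, the 14 other gene lists and the naming rule were chosen with earlier results of these data known. Named are all members, and of each other list at most 3 rises and 3 falls with at least 10 CPM in MYC-ER at 8 h and between lines at 0 h, and the 2 most alike genes per member. Alternatives were other scalings, other filters, DESeq2 1.42.0, fits of the groups compared only, GC and length trends (lowess span 0.3) removed, the replicate number as a block, and leaving out each library. Values of some list members are not reported here.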

Additional observations from a re-analysis of the deposited data

Results flagged for a closer look

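The responses of the 2 lines to 4-OHT, compared as the MYC-ER log2 change minus the parental log2 change in edgeR's quasi-likelihood test, differed for the following subunits, which is why they are listed here. At 8 h the difference was 2.24 for ITGA2, 2.29 for ITGA3, 2.30 for ITGA5, 1.5 for ITGA6, 1.24 for ITGB4 and 2.6 for ITGB5, and it was -0.89 for ITGAV, -0.34 for ITGB1 and -1.34 for ITGB8. At 24 h it was 0.8 for ITGA3, 0.39 for ITGA5, 0.55 for ITGB4 and 1.04 for ITGB5, and -1.48 for ITGAV, -1.63 for ITGB1, -1.64 for ITGB6 and -2.37 for ITGB8. At 48 h it was 0.37 for ITGA3, 0.28 for ITGA5, 0.61 for ITGB4 and 0.75 for ITGB5, and -0.48 for ITGA6, -0.9 for ITGAV, -1.33 for ITGB1, -0.41 for ITGB6 and -1.01 for ITGB8. With GC and length trends removed, the 48 h calls of ITGA5, ITGA6, ITGAV, ITGB6 and ITGB8 were lost and that of ITGA2 was gained. The ITGB6 difference changed sign there. All subunits share the same 24 libraries, and every difference includes the parental libraries at 0 h, which were the most scattered ones for ITGA2, ITGAV and ITGB8. The 48 h difference of ITGA5 had an adjusted p of 0.04929, and was lost in 18 of the 24 fits that left out 1 library (up to 0.1759, without parental 0 h replicate 3) and with only the groups compared (0.07257).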

How the results depend on the processing

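Counts of subunits called moved past 1.5-fold in few places: at 48 h the interaction count of 9 became 5 with GC and length trends removed, 5 with the replicate block added to that and 5 with only the groups compared and those trends removed (8 with only the groups compared); the parental count of 7 at 48 h became 3 with only the groups compared and 4 when those trends were removed too (this last combination was chosen after seeing the data); and the parental count of 6 at 8 h became 1 with only the groups compared and ran from 3 to 7 over fits that left out 1 library. The cause was not tested. Over all genes, parental calls fell from 6870, 9503 and 8978 at 8, 24 and 48 h to 1452, 4923 and 3274 with only the groups compared, a fit with fewer samples. Subunits called in MYC-ER at 8 h rose from 8 to 10 in such a fit. The replicate number as a block, which did not pair the libraries (correlations of same-numbered deviations -0.0776 to 0.0943), left 8 subunits called in MYC-ER at 8 h and changed 1 of 130 single results. Scaling by library size alone raised the share of higher calls from 53% to 73.8% in MYC-ER at 48 h, where it shifted the median of all genes by 0.16.

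Of 4680 values of single subunits under the alternatives, 4422 kept direction and side of the threshold and 56 changed sign, in 18 results. Of these, 2 were past the threshold: ITGB6 in the interaction at 48 h, -0.41 to 0.10 (GC and length), 0.10 (replicate block, GC and length) and 0.10 (groups compared only, GC and length), and ITGB6 in parental cells at 48 h, 0.36 to -0.029 (GC and length), -0.030 (replicate block, GC and length) and -0.037 (groups compared only, GC and length). The other 16 lay near 0 or did not pass the test. ITGA2 in the interaction at 24 h went from 0.026 to a range of -0.34 to 0.19 (leaving out 1 library). ITGA2 in the interaction at 48 h went from 0.29 to a range of -0.083 to 0.44 (leaving out 1 library). ITGA3 in parental 48 h against 0 h went from 0.041 to -0.0024 (upper quartile) and a range of -0.028 to 0.11 (leaving out 1 library). ITGA3 in parental 8 h against 0 h went from 0.026 to -0.014 (upper quartile) and a range of -0.042 to 0.10 (leaving out 1 library). ITGA6 in MYC-ER 48 h against 0 h went from -0.037 to 0.12 (library size alone), 0.0049 (upper quartile), 0.083 (GC and length), 0.036 (GC), 0.083 (replicate block, GC and length) and 0.074 (groups compared only, GC and length). ITGA6 in the interaction at 24 h went from -0.20 to 0.21 (GC and length), 0.21 (replicate block, GC and length) and 0.22 (groups compared only, GC and length). ITGAV in MYC-ER 24 h against 8 h went from -0.13 to 0.078 (library size alone). ITGAV in MYC-ER 48 h against 0 h went from 0.028 to a range of -0.035 to 0.065 (leaving out 1 library). ITGB1 in MYC-ER 48 h against 24 h went from -0.0025 to 0.044 (library size alone), 0.075 (upper quartile), 0.020 (at least 10 counts), 0.093 (GC and length), 0.10 (GC), 0.093 (replicate block, GC and length), 0.074 (groups compared only, GC and length) and a range of -0.025 to 0.036 (leaving out 1 library). ITGB1 in MYC-ER 8 h against 0 h went from 0.13 to -0.0074 (upper quartile). ITGB4 in MYC-ER 48 h against 24 h went from 0.11 to -0.0057 (GC and length), -0.0070 (replicate block, GC and length) and -0.015 (groups compared only, GC and length). ITGB4 in parental 8 h against 0 h went from -0.13 to 0.10 (GC and length), 0.16 (GC), 0.10 (replicate block, GC and length) and 0.092 (groups compared only, GC and length). ITGB5 in parental 24 h against 0 h went from 0.035 to -0.046 (upper quartile) and a range of -0.052 to 0.12 (leaving out 1 library). ITGB5 in parental 48 h against 0 h went from -0.15 to 0.0078 (GC). ITGB6 in MYC-ER 48 h against 0 h went from -0.051 to 0.11 (library size alone), 0.069 (GC and length), 0.030 (GC), 0.069 (replicate block, GC and length) and 0.053 (groups compared only, GC and length). ITGB6 in the interaction at 8 h went from 0.091 to -0.023 (library size alone), -0.012 (upper quartile) and a range of -0.052 to 0.20 (leaving out 1 library).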
